A study of Rattus norvegicus with 18 samples.

Results

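The lungs of vehicle control rats at Year 2 were compared with those of vehicle control rats at Year 0.5, so that the comparison is between old and young adult rats that never received the fiber. The 6 control rats of these time points, 3 at each, were taken by their sample labels from the 18 rats of the series. The series followed male F344/DuCrlCrlj rats that received multiwalled carbon nanotubes (MWCNT, 0.5 mg/kg of MWNT-7) or vehicle by intratracheal instillation every 4 weeks from 9 weeks of age. The vehicle, saline with Tween 80, was given to all control rats, so the older rats had also received more instillations. Control rats were necropsied 26 weeks (Year 0.5, 35 weeks of age), 52 weeks (Year 1, 61 weeks), and 104 weeks (Year 2, 113 weeks) after the first instillation. RNA came from pieces of the accessory lobe without tumors. Age, number of vehicle instillations, and time of necropsy and storage changed together and cannot be told apart.

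The lung is an interface of thin epithelium and capillaries held on a scaffold of collagens, elastic fibers, and basement membrane, much of it made by fibroblasts, endothelial cells, and epithelial cells. Natural killer (NK) cells and cytotoxic T cells circulate through its vessels and walls, kill target cells with granzymes, and read their targets through surface receptors, among which the Ly49 family, encoded by the Klra and Ly49 genes, is large in rodents. In bulk tissue, fewer cells of a type and less RNA per cell cannot be told apart.

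The rats of Year 0.5 had total counts of 13738894 to 16596355 and those of Year 2 had 13297643 to 14721398, and mitochondrial genes took 3.39% to 4.03% and 3.08% to 3.94% of them. Sftpc, the surfactant protein of alveolar type 2 cells, was at 19290, 19830, and 21300 TPM (a level per transcript length and library total) at Year 0.5 and at 20490, 17720, and 20040 TPM at Year 2. The control rat 3 of Year 2 stood apart from the others of its age. Its distance to rat 1 of Year 2, over log2 expression of the genes tested, was 64.3, against 51.1 to rat 3 of Year 0.5 and 48.9 between rats 1 and 2 of Year 2. The library name of rat 1 of Year 2 also ends differently from those of the other rats, for a reason that the labels do not give.

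DEGs were genes that changed by more than 1 on the log2 scale, in either direction, with a false discovery rate (FDR) under 0.05. Of 14245 genes tested, 41 were DEGs (0.288%), 28 higher (0.197%) and 13 lower (0.0913%) at Year 2. With the FDR alone, 274 genes passed (1.92%), 112 higher (0.786%) and 162 lower (1.14%). With scaling by library size only, 206 passed, 124 higher and 82 lower, so the balance of directions depended on the scaling. The 3 rats of one age lay wholly above or below those of the other in 3760 genes (26.4%), 12.5% of all genes being higher and 13.9% lower at Year 2. A fit without a rat has less power, and the number of DEGs changed strongly with the rat left out. It was 120 without rat 3 of Year 2, 11 without rat 2, and 12 without rat 1 of Year 2, and 5 without rat 1 and 15 without rat 3 of Year 0.5. By the FDR alone it was 728, 25, 20, 8, and 50 in the same order, and 95 without rat 2 of Year 0.5. Of the DEGs, Ly6i, Cxcl14, AABR07000398.1, and LOC108348083 passed the FDR in all 6 of these fits. LOC108348083 also differed widely between control rats of the same age at Year 1, at 286, 1, and 1 counts. It is given below with Aldh18a1.

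Receptors and granzymes of cytotoxic lymphocytes were among the DEGs that were higher at Year 2. Of 13 Ly49 and Klra entries, a family grouped by symbol after the values were seen, 9 were tested. By the FDR 4 were higher, against 0.786% of all genes, and none were lower. The 4 were Ly49s7, Klra5, Ly49s5, and Klra1. Of the granzyme entries, grouped the same way, 7 were tested and 3 were higher, Gzmbl1, Gzmbl2, and Gzmbl3. Of the other Klr entries, a further group made this way, 10 were tested and 0 passed. All 10 had a positive log2 fold change, with a median of 0.78. A fit without a rat has less power, and the Ly49, Klra, and granzyme calls changed with the rat left out. The median log2 fold change in these fits was 1.19 to 2.11 for the Ly49 and Klra entries and 1.24 to 1.83 for the granzymes. The Ly49 and Klra count was 5 without rat 3 of Year 2, 1 without rat 1 and 0 without rat 2 of Year 2, and 0 without any 1 of the rats of Year 0.5. The granzyme count was 1, 2, and 6 without rats 1, 2, and 3 of Year 2 and 0, 2, and 1 without rats 1, 2, and 3 of Year 0.5. With limma on TPM the counts were 1 and 3. The count filter can keep a gene through the rats of 1 age alone, here the old rats, where these genes were high. With at least 10 counts in every rat, 2 of 6 Ly49 and Klra entries and 2 of 5 granzyme entries were higher, against 157 of 13606 genes. Their medians were then 0.99 and 0.92, against 1.66 and 1.58. Without a filter, 4 of 13 and 3 of 9 were higher, and 3 and 1 had a negative log2 fold change.

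The 250 bases before and 50 bases after the start of 3 of these genes are shown, so that the members of the family can be compared. They are from RefSeq on GRCr8, matched by symbol, on the minus strand of chromosome 4, at chr4:166554801-166555100 (Klra5), chr4:166511244-166511543 (Ly49s7), and chr4:165645467-165645766 (Ly49s5). Capitals mark the longest run that all 3 share, 23 bases, which was looked for after the sequences were seen.
Klra5: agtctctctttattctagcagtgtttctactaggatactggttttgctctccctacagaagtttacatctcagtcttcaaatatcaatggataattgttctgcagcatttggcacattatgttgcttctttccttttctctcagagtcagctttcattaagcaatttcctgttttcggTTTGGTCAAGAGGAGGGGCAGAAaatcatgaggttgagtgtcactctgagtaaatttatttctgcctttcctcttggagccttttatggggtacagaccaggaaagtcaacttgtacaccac
Ly49s7: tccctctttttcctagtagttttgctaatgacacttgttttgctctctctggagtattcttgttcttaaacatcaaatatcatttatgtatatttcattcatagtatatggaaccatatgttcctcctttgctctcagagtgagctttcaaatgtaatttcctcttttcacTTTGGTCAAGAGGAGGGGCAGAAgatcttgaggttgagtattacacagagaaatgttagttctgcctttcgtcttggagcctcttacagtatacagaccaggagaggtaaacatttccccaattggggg
Ly49s5: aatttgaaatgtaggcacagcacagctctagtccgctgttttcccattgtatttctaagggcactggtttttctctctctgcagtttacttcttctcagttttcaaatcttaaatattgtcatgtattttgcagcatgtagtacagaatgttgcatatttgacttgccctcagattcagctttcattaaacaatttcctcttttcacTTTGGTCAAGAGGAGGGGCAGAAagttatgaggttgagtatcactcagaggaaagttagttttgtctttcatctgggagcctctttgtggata

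The run TTTGGTCAAGAGGAGGGGCAGAA, on either strand, was in 6 of 33469 promoters of this length (0.0179%), 5 of them of Klra or Ly49 genes. Of these 6, 3 are the promoters that the run was taken from, so they hold it by construction. The Klra or Ly49 genes had 21 promoters in all, and most of these lacked the run. Klra5 and Ly49s7 were identical at 74.0% of the 300 bases, Klra5 and Ly49s5 at 69.3%, and Ly49s7 and Ly49s5 at 65.7%. The RUNX core TGTGGT, searched first and on both strands, was in none of the 3 and in 17.3% of all promoters. On the build of the files, Rnor_6.0, Ly49s7 (chr4:165169065-165195489) and Klra5 (chr4:165169417-165317574) overlap on the same strand, and Ly49s5 (chr4:164136199-164357619) overlaps 3 other entries, so that the split of reads among them is uncertain.

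Ly49s7 was at 2.75, 1.56, and 1.46 TPM in the rats of Year 0.5 and at 13.5, 26.3, and 8.56 TPM in those of Year 2. Its log2 fold change was 3.06 ± 0.44 (SE, FDR = 0.0200). The lowest old rat was above the highest young rat, and rat 2 of Year 2 was the highest. Klra5 was at 1.71, 2.05, and 1.92 TPM at Year 0.5 and at 9.91, 21.4, and 4.62 TPM at Year 2, a log2 fold change of 2.67 ± 0.50 (FDR = 0.0394). Ly49s5 was at 0.766, 1.21, and 0.377 TPM against 2.70, 6.62, and 2.92 TPM (log2 fold change 2.39 ± 0.47, FDR = 0.0430). Klra1 was at 0.607, 0.848, and 0.227 TPM against 2.97, 17.6, and 8.13 TPM (log2 fold change 4.06 ± 0.70, FDR = 0.0323). In these genes too the ages did not overlap, as the rule that named all 4 required, so it adds no support. The members that did not pass included Klra2 (log2 fold change 0.29, FDR = 0.541) and Ly49si2 (0.01, FDR = 0.996).

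Granzymes are the proteases that cytotoxic cells deliver into their targets. Gzmbl3, a granzyme B-like gene, was at 3.97, 3.11, and 4.80 TPM at Year 0.5 and at 16.9, 34.2, and 27.5 TPM at Year 2, a log2 fold change of 2.72 ± 0.29 (FDR = 0.00817). It passed in 5 of the 6 fits that left out a rat. Gzmbl2 was at 20.7, 25.8, and 16.6 TPM against 53.7, 84.7, and 48.2 TPM (log2 fold change 1.58 ± 0.22, FDR = 0.0200). Gzmbl1 had 0, 1, and 2 counts against 21, 55, and 13 counts, a ratio of 31.2 with a counting interval of 10.4 to 154. LOC691695, which lies within the annotated span of Gzmb, was at 1.94, 2.47, and 7.79 TPM against 39.2, 104, and 39.8 TPM (log2 fold change 3.92 ± 0.54, FDR = 0.0200). Gzmb itself did not pass (log2 fold change 1.75, FDR = 0.260).

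Pdcd1, the inhibitory receptor PD-1 of activated T cells, was at 1.31, 1.495, and 1.89 TPM at Year 0.5 and at 4.72, 4.48, and 6.69 TPM at Year 2, a log2 fold change of 1.76 ± 0.27 (FDR = 0.0219). It passed in 1 of the 6 fits that left out a rat. Among further DEGs named after their values were seen, Il18rap and Il12rb2, receptor subunits for interleukin-18 and interleukin-12, had log2 fold changes of 1.07 ± 0.16 (FDR = 0.0200) and 1.06 ± 0.19 (FDR = 0.0328).

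**Figure D1:**
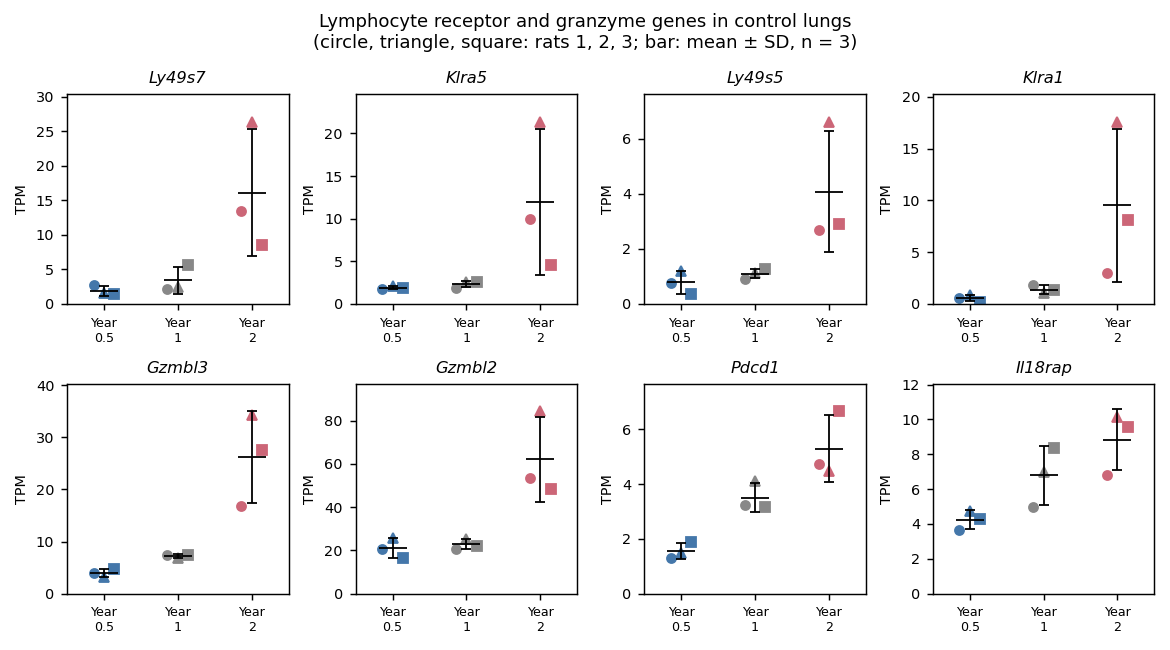
TPM of 8 receptor and granzyme genes in each control rat (circle, triangle, and square for rats 1, 2, and 3) at Years 0.5, 1, and 2, with mean ± SD over 3 rats. Every rat of Year 2 lies above every rat of Year 0.5, for Ly49s7 between 8.56 and 26.3 against 1.46 to 2.75 TPM. The rule that named all of these genes but Il18rap required this.

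Markers of these cell types were also listed as whole groups. Of 19 tested NK and cytotoxic lymphocyte markers, 19 had a positive log2 fold change with a median of 0.89, and 2 passed, Cst7 (1.00 ± 0.15, FDR = 0.0223) and Ctsw (0.72 ± 0.12, FDR = 0.0308). Of all genes tested 0.786% were higher, and their median was 0. Of 23 T cell markers 2 passed, Pdcd1 and Lat, an adaptor of the T cell receptor (0.79 ± 0.12, FDR = 0.0219), with a median of 0.52. The T cell count was 5 without rat 3 of Year 2, 1 without rat 3 of Year 0.5, and 0 without any 1 of the other rats. Lat passed in 2 of the 6 fits that left out a rat. The summed TPM of the NK list was 390, 475, and 364 at Year 0.5, 575, 507.0, and 521 at Year 1, and 709, 1026, and 506.9 at Year 2. Rat 3 of Year 2 was thus level with the lowest rat of Year 1. Without it, 11 NK markers passed, and without rat 1 or 2 of Year 0.5, or rat 1 or 2 of Year 2, 0 passed. Without rat 3 of Year 0.5, 1 passed.

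A pair of B cell genes was lower at Year 2. Cd79b, a chain of the B cell receptor, was at 19.2, 22.3, and 17.8 TPM at Year 0.5 and at 10.3, 11.4, and 11.2 TPM at Year 2 (log2 fold change -0.84 ± 0.15, FDR = 0.0328). Cr2, the complement receptor of B cells and follicular dendritic cells, fell by 0.98 on the log2 scale (SE 0.20, FDR = 0.0439). Of 26 tested markers of B and plasma cells these 2 passed, against 1.14% of all genes lower, and the median was -0.20. The count was 3 without rat 3 of Year 2, 1 without rat 2 of Year 0.5, 0 without any 1 of the other rats, and 0 in the model of 18 rats. The homing receptor Ccr7 was also lower (-0.81 ± 0.16, FDR = 0.0427), and passed in none of the fits that left out a rat.

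Hemoglobin genes were higher at Year 2, beside the lymphocyte genes. The summed TPM of the hemoglobin genes was 21510, 21510, and 17390 at Year 0.5 and 43640, 36880, and 29400 at Year 2. All 4 tested hemoglobin genes passed, with log2 fold changes from 0.81 ± 0.15 for Hbb (FDR = 0.0392) to 0.92 ± 0.17 for Hba-a1 (FDR = 0.0393). They were grouped by symbol after the values were seen. In the whole red cell list 4 of 13 tested genes were higher, against 0.786% of all genes, and 9 did not pass. None of the 13 passed without rat 1, 2, or 3 of Year 0.5 or rat 1 or 2 of Year 2. In the model of 18 rats none passed, and with limma on TPM 1 passed. Rat 3 of Year 2 was the lowest old rat in the hemoglobin sum, as in the NK sum. The part of blood left in the tissue in the lymphocyte results was not tested.

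A group of matrix and basement membrane genes was lower at Year 2. Of 23 tested genes of elastic fibers and basement membrane, 8 were lower by the FDR and 0 higher, with a median log2 fold change of -0.41, against 1.14% of all genes lower. The fibrillar and network collagens had 6 of 23 lower with a median of -0.29, and the fibroblast markers 5 of 25 with a median of -0.39. None reached the fold limit of a DEG. Without rat 3 of Year 2 the 3 lists had 14, 8, and 6 lower genes. Without any 1 of the other rats they had 1 to 5, 0 to 1, and 0 to 3. The collagens also depended on the scaling and the test, with 2 lower by library size only, 3 by upper quartile, and 0 by limma on TPM, where the elastic fiber and basement membrane genes had 6, 8, and 4.

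Laminins and nidogen build the sheet on which epithelium and endothelium rest. Lamb1, the laminin beta 1 chain, was at 37.3, 38.0, and 42.6 TPM at Year 0.5 and at 20.7, 19.2, and 22.4 TPM at Year 2, a log2 fold change of -0.91 ± 0.08 (FDR = 0.00482). It passed in all 6 fits that left out a rat. Lama2 was at 8.77, 7.89, and 10.4 TPM against 4.51, 5.63, and 5.45 TPM (-0.78 ± 0.12, FDR = 0.0219). Nid1, nidogen 1, was at 54.5, 48.95, and 52.96 TPM against 28.7, 32.3, and 35.4 TPM (-0.69 ± 0.08, FDR = 0.00996). In each of these genes all old rats were below all young rats, which the choice of genes that passed the FDR favors. Lamc1 (-0.59 ± 0.08, FDR = 0.0200), Lama4, Fbln2, Ltbp1, and Ltbp4 were the others of the list that passed. The elastic fiber genes Eln and Fbn1, first in the list, did not pass. Eln was at 282, 290.5, and 368 TPM at Year 0.5 and overlapped Year 2, at 277, 308, and 239 TPM. Fbn1 was at 25.6, 28.1, and 37.8 TPM against 17.5, 19.6, and 24.4 TPM.

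Col15a1, a collagen of basement membrane zones, was at 40.2, 41.8, and 50.1 TPM at Year 0.5 and at 18.1, 27.8, and 25.1 TPM at Year 2 (-0.89 ± 0.14, FDR = 0.0219). Col1a1, the main chain of fibrillar collagen I, was at 166, 163, and 258 TPM against 105, 108, and 122 TPM (-0.80 ± 0.16, FDR = 0.0463). Col4a1 and Col4a2, the paired chains of basement membrane collagen, fell by 0.47 (SE 0.08, FDR = 0.0329) and 0.51 (SE 0.10, FDR = 0.0439). Col3a1 had -0.76 and did not pass (FDR = 0.0586). Loxl2, which crosslinks collagen, was at 14.2, 15.1, and 18.2 TPM against 7.79, 8.75, and 8.46 TPM (-0.91 ± 0.13, FDR = 0.0200). Pxdn, which crosslinks collagen IV and was named after its value was seen, passed in all 6 fits that left out a rat (-0.78 ± 0.07, FDR = 0.00482).

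**Figure D2:**
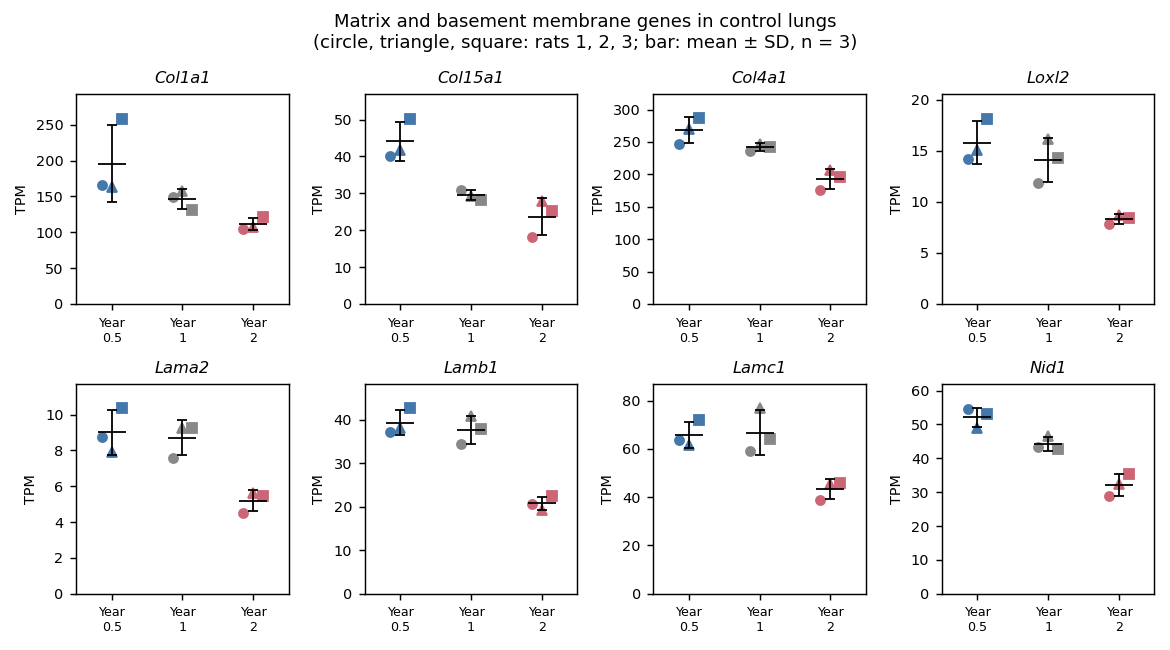
TPM of 8 collagen, crosslinking, laminin, and nidogen genes in each control rat at Years 0.5, 1, and 2, with mean ± SD over 3 rats. All rats of Year 2 lie below all rats of Year 0.5, for Lamb1 at 19.2 to 22.4 against 37.3 to 42.6 TPM. The genes shown had passed the FDR, a choice that favors such a separation.

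Mfap4, a microfibril protein, differed widely between rats of Year 2, at 280, 293, and 2590 TPM at Year 2 against 2469, 2951, and 2289 TPM at Year 0.5. It did not pass (log2 fold change -1.29, FDR = 0.352), and it overlaps Mapk7 on the other strand. Fibroblast markers that passed included Npnt, the integrin ligand nephronectin (-0.70 ± 0.09, FDR = 0.0198), Cd34 (-0.65 ± 0.06, FDR = 0.00482), and Wif1, a secreted Wnt inhibitor (-0.67 ± 0.09, FDR = 0.0198). The endothelin receptor Ednrb, of the endothelium list, was at 185, 159, and 159 TPM against 78.9, 92.5, and 94.9 TPM (-0.91 ± 0.09, FDR = 0.00482). It was the 1 gene of 26 tested in that list that passed.

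Most epithelial and stress lists held no passing gene, among them alveolar type 1 cells (0 of 19), ciliated cells (0 of 28), mitosis and DNA replication (0 of 43), DNA damage repair (0 of 21), interferon-stimulated genes (0 of 37), and the nuclear genes of the respiratory chain (0 of 26). Their medians lay between -0.19 and 0.33. Positive log2 fold changes were held by 4 of 19, 18 of 28, 38 of 43, 16 of 21, 34 of 37, and 14 of 26, in the same order. Of the alveolar type 1 genes, 11 lay wholly lower at Year 2 and 0 wholly higher, against 13.9% and 12.5% of all genes. Of the mitosis genes, 13 lay wholly higher and 1 wholly lower. In the p53 and senescence list 1 of 22 passed, Bax, a mediator of cell death (0.60 ± 0.09, FDR = 0.0200).

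**Figure D3:**
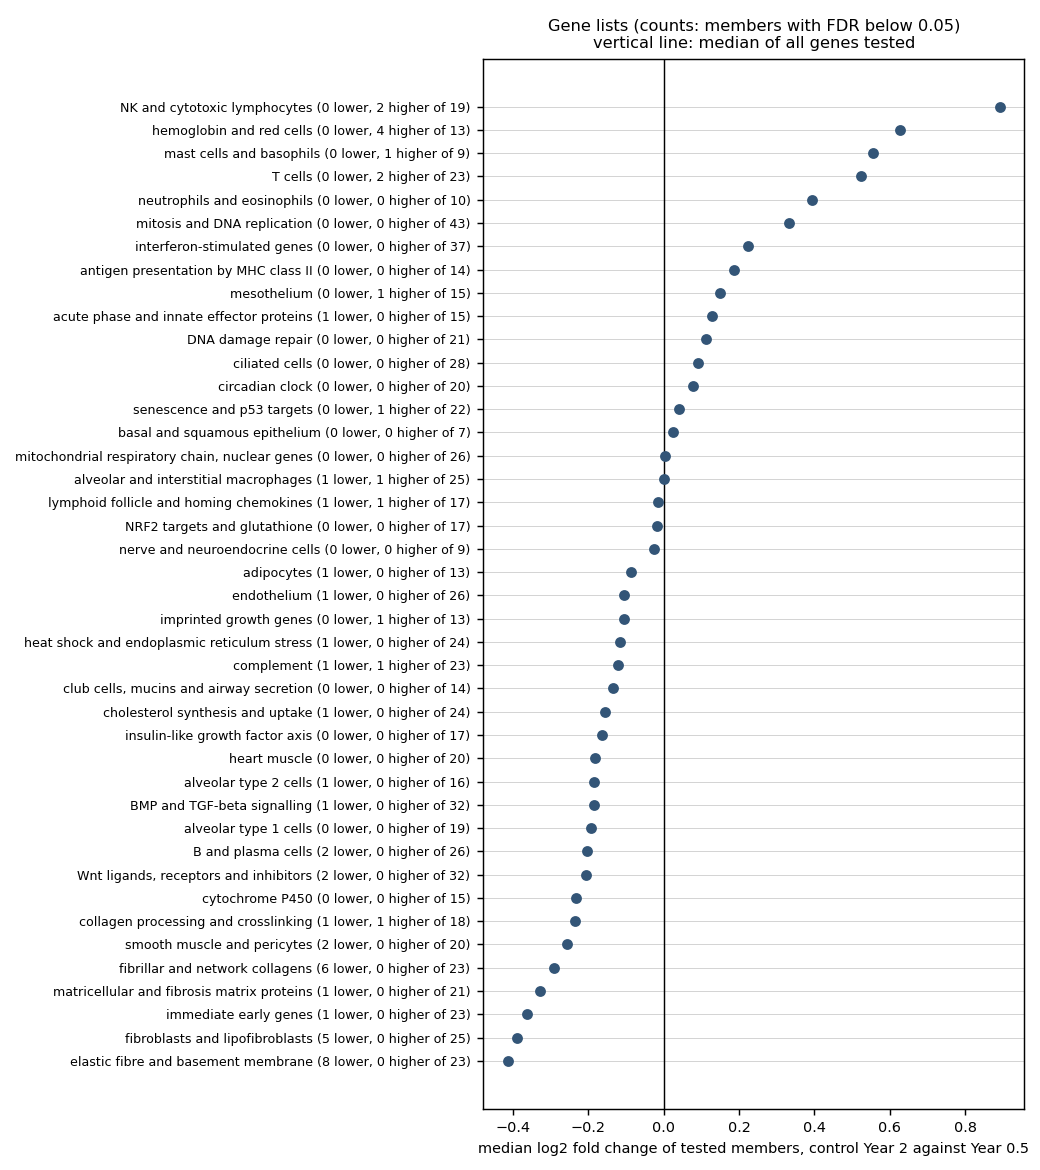
Median log2 fold change, control Year 2 against Year 0.5, of the tested members of each gene list, with counts of members at an FDR below 0.05 beside the names. The NK and cytotoxic list lies highest at 0.89 and elastic fibre and basement membrane lowest at -0.41.

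Among single genes, Ly6i, of the Ly6 family of surface proteins, had the smallest standard error of the 41 DEGs. It was at 329, 357, and 356 TPM at Year 0.5 and at 141, 151, and 140 TPM at Year 2, a log2 fold change of -1.25 ± 0.07 (FDR = 0.000179). Cxcl14, a chemokine of epithelium and stroma, was at 53.5, 52.7, and 67.5 TPM against 24.0, 28.3, and 26.4 TPM (-1.13 ± 0.11, FDR = 0.00604). It was already at 36.3, 34.7, and 28.0 TPM at Year 1, which overlapped the values of Year 2. Phex, a membrane peptidase of phosphate balance, was at 10.6, 8.02, and 8.81 TPM against 2.96, 4.25, and 4.27 TPM (-1.25 ± 0.16, FDR = 0.0198). Clstn2, a calsyntenin, had -1.19 ± 0.19 (FDR = 0.0241).

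Dlk1, an imprinted membrane ligand that holds back adipocyte differentiation, was at 52.1, 78.7, and 50.4 TPM at Year 0.5, at 116, 98.3, and 104 TPM at Year 1, and at 269, 232, and 97.1 TPM at Year 2. Its log2 fold change was 1.75 ± 0.35 (FDR = 0.0431), and rat 3 of Year 2 lay just below the rats of Year 1. It passed in 1 of 6 fits that left out a rat. The nuclear receptor Hnf4a was at 0.127, 0.0305, and 0.0573 TPM against 1.12, 1.77, and 0.868 TPM (4.03 ± 0.51, FDR = 0.0174), and Gpr50, a melatonin-related receptor within Cdkal1, had 3.05 ± 0.35 (FDR = 0.00996). Calb2, calretinin, had 0, 1, and 0 counts against 16, 14, and 18 counts, a ratio of 50.5 with a counting interval of 8.65 to 2037.

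A few entries switched between 0 and many counts. Actg1, a cytoplasmic actin, had 425, 56, and 332 counts at Year 0.5, 33, 453, and 422 at Year 1, and 0 in each rat of Year 2, and was thus at least 84.9-fold lower than at Year 0.5, set against 3 counts per library. Actg1 passed in 2 of the 6 fits that left out a rat, and how its reads were assigned among entries was not tested. Cfap58 had 64, 62, and 38 counts against 0 (at least 17.8-fold lower), and Faahl had 48, 32, and 39 counts against 0 (at least 12.8-fold lower). At Year 1 Cfap58 had 8, 58, and 15 counts and Faahl had 71, 23, and 4. In MWCNT-treated rats Faahl had 0, 0, and 0 counts at Year 0.5 and 0, 0, and 31 at Year 2. LOC108348083 had 0, 0, and 2 counts against 174, 197, and 180 counts, while Aldh18a1, a proline synthesis enzyme, had 369, 302, and 380 against 178, 191, and 145 counts. The sum of these 2 entries was 369, 302, and 382 counts against 352, 388, and 325 counts, and so overlapped between the ages. At Year 1 LOC108348083 had 286, 1, and 1 counts and Aldh18a1 had 48, 341, and 426. In MWCNT-treated rats LOC108348083 had 2, 362, and 2 counts at Year 0.5 and 1, 39, and 0 at Year 2. It thus also differed between rats of the same age.

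Of the 41 DEGs, the mean of Year 1 lay between those of Years 0.5 and 2 in 36, nearer to Year 0.5 in 26 of them. Of the 274 genes with an FDR below 0.05, it lay between in 219, nearer to Year 0.5 in 180. These genes were chosen by the difference between Years 0.5 and 2, which favors a mean of Year 1 between them. Year 1 is also nearer in time to Year 0.5 than to Year 2. The share over all genes was not computed, so no time course is drawn from these counts.

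The same ages were compared in the MWCNT-treated rats, which share no rat with the control comparison. There 316 genes were DEGs (2.21%) and 2141 passed the FDR (15%), 1095 higher (7.65%) and 1046 lower (7.31%) at Year 2. Of the 274 control genes, 267 were tested in the treated rats, 243 changed with the same sign (91.0%, against 67.0% of all genes tested in both), and 111 passed with the same sign. The difference of the time effects between treatments passed the FDR in 139 of 14689 genes (0.946%), 22 of them among the 274. Ly6i was 1 of these: it was at 1014, 1143, and 1153 TPM in the treated rats of Year 0.5 and at 1395, 990, and 1221 TPM in those of Year 2 (interaction FDR = 0.00194). Cxcl14 fell in both, by 1.35 on the log2 scale in the treated rats (FDR = 0.00697). Dlk1 was at 1.01, 1.08, and 2.60 TPM in the treated rats of Year 0.5 and at 2.20, 12.97, and 10.5 TPM at Year 2, a log2 fold change of 2.54 (FDR = 0.0293). Its level in the treated rats thus stayed below that of every control rat.

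**Figure D4:**
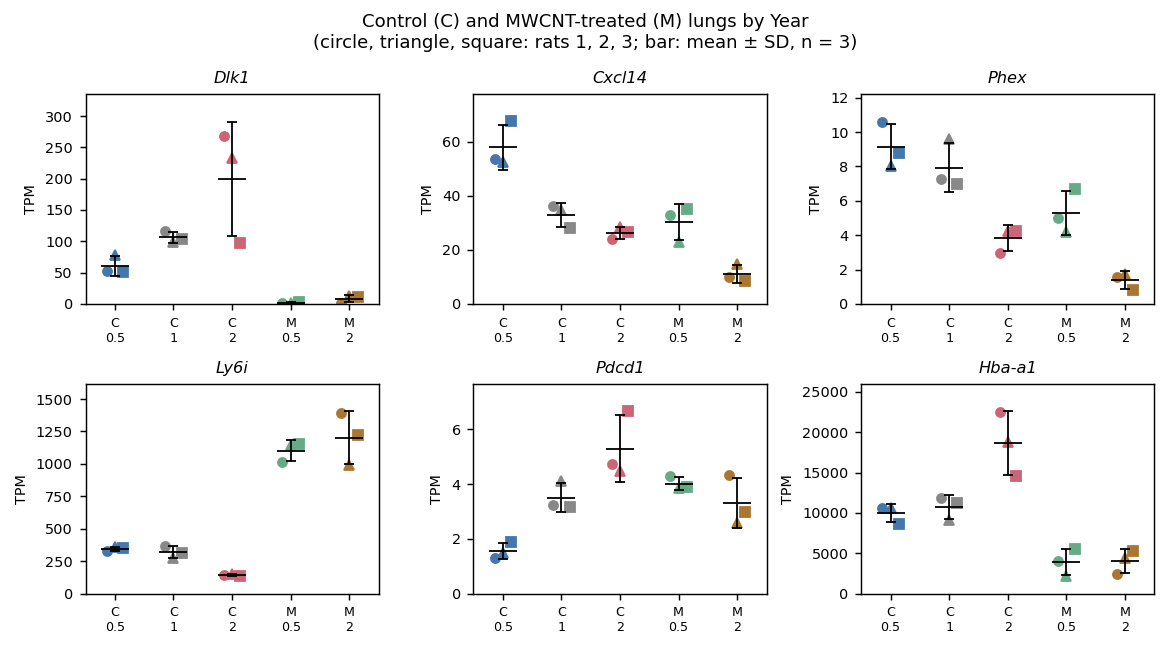
TPM of 6 genes in each control rat (C) at Years 0.5, 1, and 2 and each MWCNT-treated rat (M) at Years 0.5 and 2, with mean ± SD over 3 rats. Ly6i falls to 140 to 151 TPM in old control rats and lies at 990 to 1395 TPM in old treated rats.

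**Figure D5:**
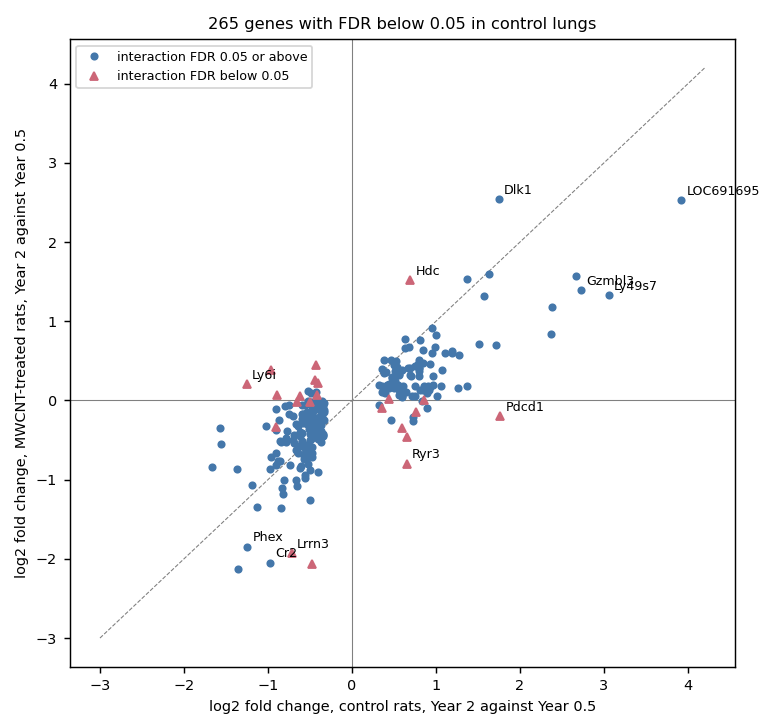
Log2 fold change, Year 2 against Year 0.5, in MWCNT-treated rats (vertical) against control rats (horizontal) for 265 of the 267 genes that passed in control rats and were tested in both, with 2 genes at 0 counts in all old control rats left out; the dashed line marks equal change. Triangles are genes with an interaction FDR below 0.05.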

How the data were processed

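RNA-seq of the lungs of 6 control rats was analysed, with 3 control rats of Year 1 and 6 MWCNT-treated rats for comparison. The authors mapped the reads in CLC Genomics Workbench, on Rnor_6.0 per the labels, and deposited whole-number counts per gene, with strand and multi-mapping not given in the sources used here. The same reads gave the deposited TPM values. The authors' own comparison columns and their other normalized columns were not used.

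The tables of the time points were joined by identifier (22081 genes). Counts of the 6 rats were filtered with filterByExpr (minimum count 10, total 15), scaled with TMM factors, and fitted in edgeR 4.0.16 (quasi-likelihood F test, R 4.3.3), with Benjamini-Hochberg FDR. The interaction was tested in the 12 rats of both treatments. The method was tested on simulated data. Replicates are separate rats, and the SD in the figures is the spread between 3 rats. The SE of a log2 fold change comes from the fitted model of the rats compared. It is the absolute log2 fold change divided by the square root of F. Counting intervals are exact at 95% and cover counting error only, as does the floor of 3 counts per library.

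Named genes were the 15 largest rises and 15 largest falls among DEGs with ages that did not overlap and a mean TPM of at least 0.5, the 10 DEGs with the smallest p, DEGs of the 44 gene lists, and the first 3 genes of each list. Other genes were named after their values were seen: they are the remaining DEGs and the members of lists that passed only the FDR. The Klra, Ly49, other Klr, granzyme, hemoglobin, Mfap4, Aldh18a1, and Pxdn entries were also chosen after their values were seen. Some genes that the rule names are not reported here. The members and lists were chosen with earlier results of these data known. Alternatives were DESeq2 1.42.0, limma 3.58.1 on log2(TPM + 1) and log2(TPM + 0.1), other filters and scalings, models of 9 and 18 rats, a replicate block, other thresholds, and each rat left out.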

Additional observations from a re-analysis of the deposited data

Results flagged for a closer look

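The change from Year 0.5 to Year 2 differed between MWCNT-treated and control rats, by the test of the interaction itself, in 139 genes, 89 with a higher and 50 with a lower log2 change in the treated rats. With library size only the calls were 43 higher and 63 lower, so the balance depended on the scaling. Among them were 22 of the genes that passed the FDR in control rats. Of those reported here, the log2 difference, treated minus control, was positive in Aldh18a1 (1.36), Angpt1 (0.65), Col15a1 (0.97), Colec12 (0.70), Cpq (0.50), Ctsl (0.64), Hdc (0.83), Hhip (0.69), Lamb1 (0.59), Lpl (0.88), Ly6i (1.47), and Pros1 (0.49). It was negative in AABR07017902.1 (-1.11), Baiap3 (-0.89), Lrp2 (-0.44), Lrrn3 (-1.20), Nsun7 (-0.93), Pdcd1 (-1.96), Phkg2 (-0.41), Ryr3 (-1.44), and Zc3h12d (-0.84). In control rats the counts of Aldh18a1 and LOC108348083 moved in opposite directions and their sum overlapped between the ages, so the value of Aldh18a1 alone is uncertain. Pdcd1 rose with age in control rats and was at 4.29, 3.87, and 3.90 TPM in treated rats at Year 0.5 and at 4.33, 2.59, and 2.99 TPM at Year 2, so that the treated rats were already above the control rats of Year 0.5.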

How the results depend on the processing

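The 41 DEGs of the control comparison became 81 with DESeq2, 25 and 23 with limma on log2(TPM + 0.1) and log2(TPM + 1), 94 in a model of 18 rats, 69 in a model of 9 control rats, and 8 at an FDR below 0.01, against 274 with the FDR alone. The count by FDR alone became 839, 96, 104, 987, and 640 in the first 5 of these. With each rat left out, DEGs ranged from 5 to 120 and genes by FDR alone from 8 to 728, lowest without rat 1 of Year 0.5 and highest without rat 3 of Year 2. Of the 41 DEGs, 37 were called by DESeq2. Without rats 1, 2, and 3 of Year 0.5, 5, 20, and 12 of them were called, and without rats 1, 2, and 3 of Year 2, 10, 10, and 38. None of the 274 genes changed direction under any alternative that tested it, and 80 of them no longer passed with library size only. Library size only and upper quartile moved the median log2 change of all genes by 0.039 and 0.015. The DEGs of the treated rats (316) became 188 with limma on log2(TPM + 1), 156 at an FDR below 0.01, and 2141 with the FDR alone, and ranged from 199 (without treated rat 3 of Year 0.5) to 348 with a rat left out. The interaction count (139) became 529 with DESeq2, 51 and 88 with limma on log2(TPM + 0.1) and log2(TPM + 1), 44 with the fold limit, and 8 at an FDR below 0.01, and ranged from 23 to 239 with a rat left out. It was 57, 66, and 56 without control rats 1, 2, and 3 of Year 0.5, 64 and 23 without control rats 1 and 2 of Year 2, 39, 239, and 45 without treated rats 1, 2, and 3 of Year 0.5, and 30 and 76 without treated rats 1 and 2 of Year 2.

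Replicate numbers recur between ages but mark separate rats. Deviations from the group mean correlated at 0.0119, 0.179, and 0.240 in same-numbered rats, and not every rat correlated best with its own number, so the numbers were not taken as pairs. With the replicate block, the control comparison gave 81 DEGs and 569 genes by FDR alone, and the interaction 83.

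With 3 rats per age, a gene that did not pass is not shown to be stable.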
